A study of Mus musculus with 18 samples.

Results

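The genes described are those of both subunits of FACT and of 8 further histone chaperone proteins, taken by symbol from a table of nascent transcription in murine ES cells. They are Supt16, Ssrp1, Asf1a, Asf1b, Chaf1a, Chaf1b, Hira, Daxx, Atrx and Nasp, and all 10 were found among the 21859 genes listed. A second table held promoter upstream transcripts (PROMPTs), which run antisense to a gene from within 1 kb upstream of its start, and 6 of its 32253 entries carried the symbol of one of these genes.

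Newly made RNA was measured by TT-seq, in which RNA labelled with 4-thiouridine (4sU) for 5 min is purified and sequenced, in 18 libraries from 6 groups of 3. Untagged E14 cells and SPT16_AID_V5 Clone1 and Clone2 were each treated for 24 h with EtOH (0.1% ethanol) or with 3-IAA, an auxin. All cells were of the male E14 line and carried osTIR1, the plant F-box protein that lets auxin target a tagged protein for degradation. They grew with LIF and inhibitors of GSK and MEK. In Clone1 and Clone2, both homozygous, the endogenous Supt16 gene carried a mini-AID degron and V5 epitopes at the C-terminus of the protein, so that 3-IAA removes the protein and leaves the gene to be transcribed. Per the sample labels, 3-IAA was used at 500 nM and 4sU at 500 mM, whereas both are in µM in the methods. The tagged groups come from 2 clones, and repeats within a clone are technical in the study's terms.

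Histone chaperones bind histones outside the nucleosome and hand them to DNA or take them off it. FACT opens and rebuilds nucleosomes ahead of and behind RNA polymerase II. CAF-1 deposits new H3 and H4 behind replication forks, while HIRA and the DAXX-ATRX pair deposit the variant H3.3 outside replication, HIRA largely at active genes and DAXX-ATRX at heterochromatin and telomeres. ASF1 passes H3 and H4 to CAF-1 and to HIRA, and NASP keeps a soluble pool of them.

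Each gene had 1 usable value, the authors' mean of normalized read counts over the libraries, SPT16-depleted and control together. It therefore gives the level of transcription in these cells as a whole, with no value per library, no spread between replicates and no test. The fold changes and p-values of the authors' own comparison were not used, and the effect of SPT16 depletion on these genes was not analysed here. The intervals given are exact Poisson 95% intervals that take the mean to be over all 18 libraries, since the methods do not list which entered it, and they cover counting error only. They also take all libraries to be of equal depth, so the 95% is approximate where depths differed. For the 10 genes the half-widths of these intervals lay between 0.271% and 1.31% of the mean. Over all genes the means summed to 55.9 M normalized counts. All 10 ES cell markers examined were at means between 5985 and 72140, while 14 of 16 markers of mesenchyme, neurons, endoderm and blood were below 100, with a sum of 954 over the 16. The exceptions were Map2 at 616 and Pdgfra at 212. Per kb of gene span they were at 2.30 and 4.62, both below the median of all genes, 21.7. Tubb3, Neurod1 and Hbb-bt were listed at 0. Both Tubb3 and Neurod1 lie wholly within same-strand genes, whose effect on counting is described next. The 0 of Tubb3 and of Neurod1 therefore does not show that they were silent, though both are counted among the 14.

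Levels of different genes can be compared only per length, and the length that was counted had to be found from the table itself. Of 190 genes that lie wholly inside another listed gene on the same strand without sharing any exon with it, 188 were at 0, and the highest of the other 2 was at a mean of 7.24. All 192 such genes that do share exons were also at 0, against 7.69% of all 21817 genes with a known length. This is the pattern left when reads are assigned over whole gene spans, introns included, and reads that fall in 2 genes of the same strand are discarded. The level of each gene is therefore given per countable kb, which is its span less any part shared with another listed gene on the same strand. For 9 of the 10 genes the whole span was countable by this rule, and for Hira 15.1% of it was. Chaf1b and Atrx also overlap same-strand genes that are not listed, Gm49617 and Gm14853, and these overlaps were not taken off. Whether reads were lost there is not known. Percentiles are among the 20033 genes above 0 with at least 200 countable bases, whose median was 23.6 per countable kb.

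The chaperone genes were strongly transcribed per countable kb. All 10 lay above the median of all genes per countable kb and also above the 75th percentile, 119.67, with a median of 252 and a range from 140 at Hira to 815 at Nasp. On other measures fewer lay above the 75th percentile, 9 per kb of span, 8 per kb of exons and 7 by the mean itself. The order of levels per countable kb was Nasp, Ssrp1, Supt16, Chaf1a, Asf1a, Atrx, Chaf1b, Daxx, Asf1b and Hira, and the highest was 5.83 times the lowest. Neighbours in this order differed by between 1.03 and 2.28 times, and Nasp stood furthest from its neighbour. The counting intervals overlapped in 0 of the 9 neighbouring pairs. Whether neighbours differ by more than the libraries vary could not be assessed.

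**Figure D1:**
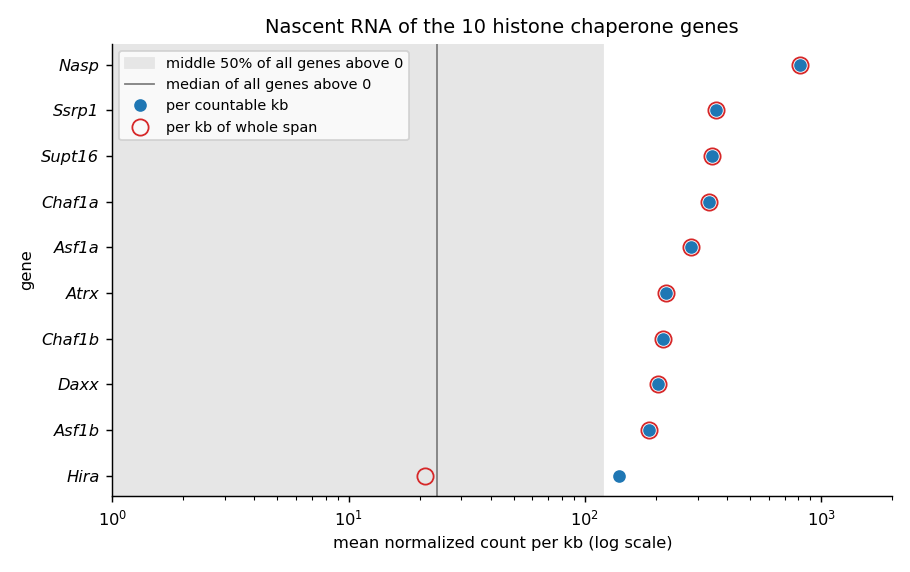
Mean normalized count per kb of each of the 10 genes on a log axis, per countable kb (filled points) and per kb of the whole span (open circles), from the authors' mean over libraries. The shaded band and the line give the middle 50% and the median of all genes above 0 per countable kb. Every filled point lies to the right of the band, and the 2 points of a gene part only at Hira, at 140 against 21.1.

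Both FACT subunits were transcribed at nearly the same level per length of span, though not per length of exons. Supt16 encodes SPT16, the larger subunit and the one that carries the degron. It lies on the minus strand of chromosome 14 from 52160414 to 52197416 (GRCm38), a span of 37.0 kb, and had a mean of 12729 (12677 to 12781), or 344 per countable kb, at the 94.5th percentile. Ssrp1 encodes the HMG-box subunit SSRP1. It lies on the plus strand of chromosome 2 from 85037234 to 85047109, and had a mean of 3537 (3509 to 3564), or 358 per countable kb, at the 94.9th percentile. The mean of Supt16 was 3.60 times that of Ssrp1, and the ratio was 0.961 per kb of span and 2.67 per kb of exons, which turns the order. Exons made up 13.6% of the span of Supt16 and 37.8% of that of Ssrp1. The sequences just upstream of both starts are shown because the genes encode an obligate pair. They are from RefSeq windows on GRCm38.p6, cut to the bases upstream of both the RefSeq and the Gencode start, at chr14:52197417-52197489 on the minus strand and chr2:85036870-85037119 on the plus strand, written 5′ to 3′ with matches to the motifs searched in capitals.
Supt16: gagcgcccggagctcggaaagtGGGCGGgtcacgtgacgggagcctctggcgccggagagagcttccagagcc
Ssrp1: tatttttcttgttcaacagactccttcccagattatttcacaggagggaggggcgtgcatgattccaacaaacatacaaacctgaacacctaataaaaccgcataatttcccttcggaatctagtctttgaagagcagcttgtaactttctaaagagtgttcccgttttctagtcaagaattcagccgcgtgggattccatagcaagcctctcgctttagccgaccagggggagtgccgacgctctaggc
The capitals in Supt16 mark 1 SP match (GGGCGG), and the Ssrp1 stretch held none of the motifs searched. Over the whole 300-base windows the GC content was 65.7% for Supt16 and 48.3% for Ssrp1, against a median of 52.7% over 32851 windows. These windows cover unlike regions. Only 73 bases of that of Supt16 lie upstream of its Gencode start, while that of Ssrp1 lies wholly upstream of its own.

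Among the replication-coupled chaperones, Chaf1a was transcribed more than Chaf1b. Chaf1a encodes the large subunit of CAF-1, p150 in human cells, and lies on chromosome 17 from 56040439 to 56072289. Its mean was 10685 (10638 to 10733), or 335 per countable kb. Chaf1b, on chromosome 16 from 93883901 to 93906115, encodes the WD-repeat subunit and had a mean of 4736 (4705 to 4768), or 213 per countable kb. Chaf1a was thus at 1.57 times Chaf1b per kb of span. The remaining CAF-1 subunit gene, Rbbp4, whose product also serves several histone-modifying complexes, was higher than both at 510. The 250 bases upstream of the RefSeq start of Chaf1a (chr17:56040166-56040415, plus strand, GRCm38.p6) are shown since it was one of 2 genes whose window held an E2F match, the motif of factors that time S-phase genes.
Chaf1a: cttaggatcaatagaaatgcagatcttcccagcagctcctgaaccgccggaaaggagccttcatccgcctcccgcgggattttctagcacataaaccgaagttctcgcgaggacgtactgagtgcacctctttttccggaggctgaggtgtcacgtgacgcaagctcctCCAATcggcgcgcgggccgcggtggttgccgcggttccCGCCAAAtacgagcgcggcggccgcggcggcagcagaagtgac
The capitals mark 1 CCAAT box (CCAAT) and, read on the other strand, 1 E2F match (TTTGGCG).

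The paralogs of ASF1, which binds the H3-H4 dimer, were both well transcribed. Asf1a, on chromosome 10 from 53596757 to 53609225, had a mean of 3519 (3491 to 3546), or 282 per countable kb. Asf1b, on chromosome 8 from 83955507 to 83970197 and known as the paralog tied to proliferation, had a mean of 2751 (2726 to 2775), or 187 per countable kb. Asf1b was thus at 0.663 times Asf1a per kb of span, while per kb of exons the order turned, at 1.22 times. Of their partners, Mcm2, a subunit of the replicative helicase that also binds H3-H4, was at 287. Mms22l and Tonsl, which form a complex at stressed replication forks, were at 193 and 93.8. Cdan1, which encodes codanin-1, an ASF1-binding protein, was at 139 per countable kb, though only 12.4% of its span could be counted, and at 17.3 per kb of its whole span.

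Nasp was the most strongly transcribed of the 10 genes. It lies on the minus strand of chromosome 4 from 116601052 to 116627941, and its mean of 21908 (21840 to 21977) came to 815 per countable kb, at the 98.6th percentile. The level was 2.28 times that of Ssrp1, the next in order. Among other genes that act on H3-H4 before deposition, Hat1, an acetyltransferase of new H4, was at 530. Rbbp7, its partner, was at 523. Dnajc9, a heat shock co-chaperone that binds H3-H4, was at 371, and Ipo4, an importin, was at 127 with 34.8% of its span countable. The bases upstream of the Nasp start (chr4:116627952-116628201, minus strand, GRCm38.p6) are shown as those of the gene with the highest level.
Nasp: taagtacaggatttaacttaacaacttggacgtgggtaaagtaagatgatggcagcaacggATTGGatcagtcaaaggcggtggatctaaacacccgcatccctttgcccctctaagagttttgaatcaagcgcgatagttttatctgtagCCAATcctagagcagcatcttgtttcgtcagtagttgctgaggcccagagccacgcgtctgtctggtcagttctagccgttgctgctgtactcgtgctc
The capitals mark 2 CCAAT boxes, 1 on each strand.

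Hira gave the lowest level of the 10 genes, and most of the gene could not be counted. Hira encodes the WD-repeat subunit of the HIRA complex and lies on chromosome 16 from 18877037 to 18970309, a span of 93.3 kb. A predicted coding gene on the same strand, Gm28539, with a mean of 503, begins 40.5 kb upstream of Hira and runs 79.2 kb into it, leaving 14.1 kb at the 3′ end. The mean of Hira was 1965 (1944 to 1985). Per kb of the whole span this was 21.1, below the median of all genes on that measure, 21.7, whereas per countable kb it was 140, at the 78.4th percentile. The latter lay among the other members of the complex, Ubn1 at 140, Cabin1 at 133 and Ubn2 at 123, all of whose spans were fully countable. The 4 genes thus covered a narrow range per countable kb. Per kb of exons the range was wider, from 316 at Hira through 522 at Ubn2 and 611 at Ubn1 to 1294 at Cabin1. The countable part of Hira is its end, and the level over the first 79.2 kb was not measured by this table.

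**Figure D2:**
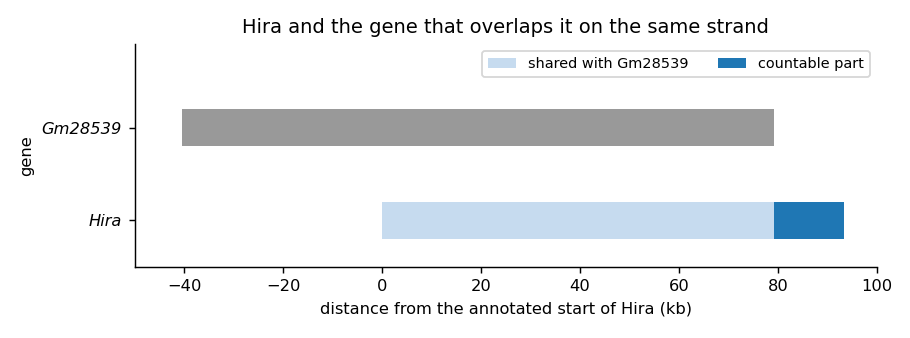
Map of Hira and Gm28539, which lie on the same strand, by distance in kb from the annotated start of Hira. The light part of Hira, up to 79.2 kb, is shared with Gm28539, and the dark part, 14.1 kb at the 3′ end, is the countable part.

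Daxx and Atrx, whose products act together on H3.3, had similar levels per length of span although their means were far apart. Atrx, which encodes a SNF2-family remodeller, lies on the minus strand of the X chromosome from 105797615 to 105929403, and its span of 131.8 kb was the longest of the 10. Its mean of 29130 (29052 to 29209) was also the highest of the 10 and came to 221 per countable kb. Daxx, which encodes the H3.3-binding partner, lies on chromosome 17 from 33909414 to 33915590, and its span of 6.18 kb was the shortest. Its mean of 1257 (1241 to 1273) was the lowest of the 10 and came to 203 per countable kb. The means differed by 23.2 times and the levels per kb of span by 1.09 times, but per kb of exons Atrx was at 3.36 times Daxx. Levels were not adjusted for gene copy number, which differs between an X-linked and an autosomal gene in these male cells.

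The 10 genes were also set beside 29 other genes, namely the non-member subunits and partners above and chaperones of other classes. Of these, 26 lay above the median of all genes per countable kb and 24 above the 75th percentile, with a median of 273. The highest were Npm1 and Ncl, which encode the nucleolar proteins nucleophosmin and nucleolin, at 3615 and 3134, and Set, an H2A-H2B and H3-H4 binding protein, at 1042. The lowest were Nap1l5 at 2.39, Npm2, the nucleoplasmin of oocytes, at 5.08, and Nap1l3 at 15.8. These 3 lay below the median of all genes.

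**Figure D3:**
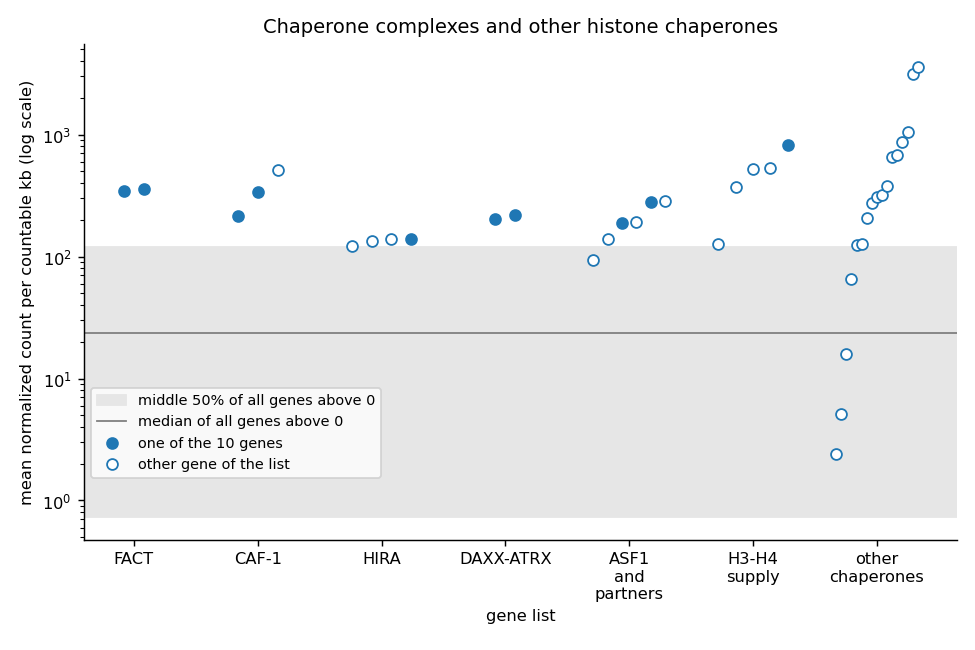
Mean normalized count per countable kb on a log axis for the genes of each list, each point 1 gene, filled for the 10 genes described. The band and the line give the middle 50% and the median of all genes above 0. On this measure the members of FACT, of HIRA and of the DAXX-ATRX pair lie close together, and the other chaperones range from 2.39 to 3615. The lists differ in size, and the genes of FACT, HIRA and DAXX-ATRX lie further apart per kb of exons.

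Upstream antisense transcription was listed for 6 of the 10 genes, and 5 of these 6 lay above the median of the 23257 PROMPTs above 0, 0.815. PROMPTs are short-lived transcripts that arise from the same open promoter region as the gene. The highest was that of Nasp, with a mean of 37.3 (34.5 to 40.2), rank 1170 from the top. Those of Chaf1a at 26.2 (23.9 to 28.7) and of Daxx at 14.6 (12.9 to 16.5) followed. The PROMPT of Atrx was at 7.02 (5.85 to 8.36) and that of Chaf1b at 6.43 (5.31 to 7.71), and these intervals overlapped. The PROMPT of Hira was the lowest at 0.559 (0.269 to 1.03), which is about 10.1 normalized reads if all 18 libraries entered the mean, and its interval included the median. The gene and PROMPT tables were normalized separately, so a ratio between them holds only up to a common factor. The ratios also take every PROMPT to be counted over 1 kb, which was not checked. Per kb, the PROMPT amounted to 7.82% of its gene for Chaf1a, 7.16% for Daxx, 4.57% for Nasp, 3.18% for Atrx and 3.02% for Chaf1b, against a median of 4.14% over 12526 symbols with a gene mean of at least 10. The PROMPT of Hira was at 0.3999% of the gene per countable kb and at 2.65% per kb of its whole span. Another gene, Mrpl40, lies on the strand of this PROMPT within that 1 kb (below), so the length counted for it is uncertain.

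**Figure D4:**
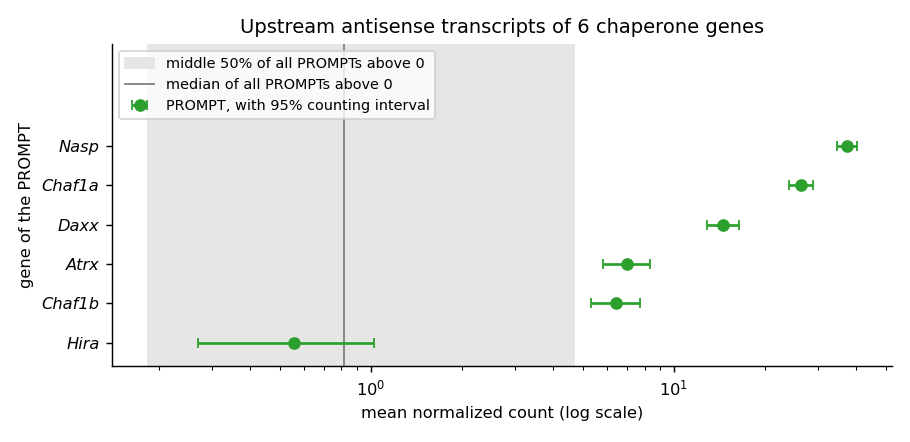
Mean normalized count of the 6 listed PROMPTs on a log axis, with exact Poisson 95% intervals that cover counting error only. The band and the line give the middle 50% and the median of all PROMPTs above 0, and only the PROMPT of Hira, at 0.559, lies inside the band.

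Neither FACT gene and neither ASF1 gene had a PROMPT entry. The description deposited with the tables defines PROMPTs as lying away from every other annotated protein-coding transcript by at least 1 kb, which the entries did not follow throughout when set against Gencode vM21. In Gencode vM21 another coding gene reaches into the 1 kb upstream of each of these 4 starts. Chd8, on the same strand as Supt16, ends 735 bases upstream of it. P2rx3, on the opposite strand to Ssrp1, begins 228 bases inside it. Mcm9, on the opposite strand to Asf1a, spans its start. Gm10644, on the opposite strand to Asf1b, begins 302 bases upstream of it. Over all genes 83.0% had a PROMPT entry, and another coding gene reached the 1 kb upstream in 13.1% of those with an entry and in 56.0% of those without. Whether these neighbours are why the 4 genes have no entry was not tested, and antisense RNA upstream of them was not measured here. Of the 6 listed genes, Hira too has such a neighbour on the opposite strand. Mrpl40, with 251 per countable kb, begins 175 bases upstream of it. Reads of Mrpl40 run in the sense of the Hira PROMPT, whose mean of 0.559 shows that few reads were assigned there. Which bases were counted for that PROMPT is not known.

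**Figure D5:**
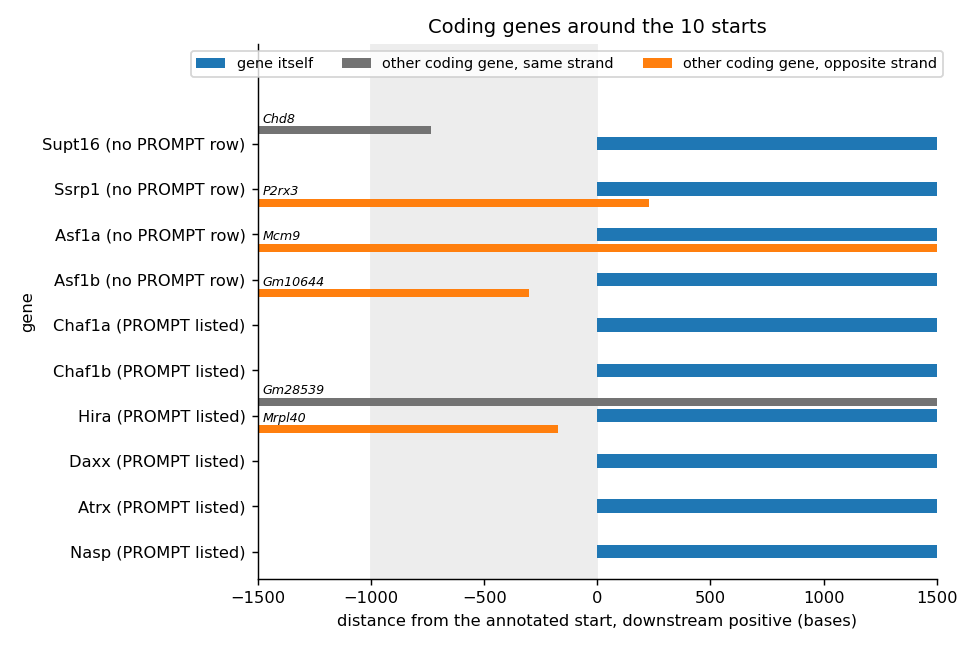
Coding genes close to the annotated start of each of the 10 genes, by distance from that start, with the 1 kb upstream shaded. Another coding gene enters the shaded part at the 4 genes with no PROMPT entry and, of the 6 with one, at Hira.

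The promoter windows of the 10 genes, 250 bases before to 50 after the RefSeq start, all matched the genome and had a CpG ratio above the median. The observed over expected CpG ratio lay above the median of 0.384 in all 10, from 0.583 at Atrx to 1.09 at Supt16. Those 2 values were at the 63.1st and 97.8th percentiles, and Nasp was at the 74.4th. GC content lay above its median in 7, all but Ssrp1, Atrx and Nasp. The motifs were searched on both strands. The TATA box (TATAAA), the NRF1 core (GCGCATGC) and the CRE (TGACGTCA) were found in 0 of 10 windows and in 13.6%, 2.71% and 1.79% of all windows. The SP motif (GGGCGG) was found in 7 windows, against 35.7% of all. The CCAAT box was found in 6, against 37.4%, and these included the windows of Daxx, Atrx and Nasp. The ETS motif (CCGGAAG) was found in 4, those of Supt16, Chaf1b, Hira and Daxx, against 8.86%. The E2F motif (TTTGGCG or TTTCCCG) was found in those of Asf1a and Chaf1a, against 4.84%, and the YY1 core (AAGATGG) in that of Asf1a, against 6.34%. In Supt16 the ETS matches lie downstream of the Gencode start, outside the stretch shown. The window used for Ssrp1, 1 of 2 in RefSeq, held none. The windows behind the shares over all were not matched to the 10 genes for GC or CpG content. A match describes the letters of the window and does not show that a factor binds.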

How the data were processed

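Per the labels and the methods, TT-seq libraries were made from 18 samples in 6 groups of 3. The authors trimmed reads with Trim Galore, kept unique STAR alignments to mm10, counted them by strand with featureCounts on Gencode vM25 features without an expression filter, and normalized them by DESeq2 size factors; the labels also list HTSeq and deepTools. The gene and PROMPT tables were used, 2 of the 4 deposited. The signal used, the mean normalized count over libraries (baseMean), is as deposited. Its library list is not given in the sources used here, and 18 was taken for the counting intervals. The 4 columns of the authors' comparison (log2 fold change, standard error, p-value, adjusted p-value) were not used. Regions in the other tables carry no gene name.

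Spans, exons and neighbours came from Gencode vM21 (GRCm38, the build of mm10), matched by gene ID for 21817 of 21859 genes, and promoter windows from RefSeq. Countable span was chosen after seeing the data, as span less same-strand overlap with listed genes, with a minimum of 200 bases. The genes and lists were chosen with earlier results of these data known. All 10 genes, all genes of the complex lists, and the 3 highest and 3 lowest other chaperones per kb of span were named. Intervals and the countable span were tested on simulated data (seed 1). Python 3.11.15, numpy 2.4.6, pandas 2.3.3, scipy 1.17.1, pysam 0.24.0 and matplotlib 3.10.9 were used. Alternatives were the length, the genes ranked against, the filter on gene means and the promoter window.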

Additional observations from a re-analysis of the deposited data

How the results depend on the processing

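Of 26 values recomputed under an alternative setting, 22 kept their direction and stayed within the limits set for a change. Among the 22, the TATA, NRF1 and CRE counts, 0 in the whole window, could only be 0 in its upstream part. Also among them, the PROMPTs above the median went from 5 to 6 when every listed PROMPT was ranked. The values outside the 22 were all of the ratios between genes, under merged exon length in place of span. Supt16 over Ssrp1 went from 0.961 to 2.67 and Asf1b over Asf1a from 0.663 to 1.22, which turned both orders. Chaf1a over Chaf1b went from 1.57 to 1.19 and Atrx over Daxx from 1.09 to 3.36. Counting over whole spans was inferred from the nested genes at 0 (above) and is not stated in the methods. If it holds, exon length does not match what was counted. Countable span, chosen after seeing the data, raised the genes above the median from 9 to 10 of the 10 and from 25 to 26 of the 29 others. No paired analysis was possible because each gene has 1 mean over all libraries, and for the same reason no replicate could be left out. The planned protein comparison of Asf1a and Asf1b was not run. Differences between Gencode versions could move spans and overlaps, and the spread between libraries is unknown.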

Other observations

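In the 1 kb upstream of the 6 genes with a PROMPT entry, read on the PROMPT strand, the polyadenylation signal AATAAA occurred 3 times for Nasp, 1 time each for Chaf1a, Chaf1b and Daxx, and 0 times for Atrx and Hira. It was found in 42.6% of 18052 such windows. The 5′ splice site letters GGTAAG occurred 2 times for Daxx and 1 time for Nasp, and were found in 14.1% of windows.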
